A study of Homo sapiens with 6 samples.

Results

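Collagen chains are the gene family described here: the genes whose symbol is COL, a type number, A and a chain number. The deposited table holds 44 of them among 19960 genes. They were followed in MKN28, a cell line grown from a human gastric adenocarcinoma. Stable MKN28 cells carrying a short hairpin RNA plasmid against LTBP1 (shLTBP1, 3 libraries) were set against stable MKN28 cells carrying a scrambled hairpin plasmid (shSCR, 3 libraries). Both groups grew in the same serum-containing medium, and total RNA was sequenced. The labels name no clone, no hairpin sequence and no separate culture or transduction for the replicates. The p-values below therefore set a group difference only against the spread among libraries of a group, and that spread may be technical.

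Collagens are proteins of the extracellular matrix in which several chains wind into a triple helix. Each chain repeats glycine at every 3rd residue, because glycine is the residue small enough to sit at the core of the helix. Fibrillar collagens build cables, type IV forms the mesh of basement membranes, type VI forms beaded filaments, and FACIT collagens (fibril-associated collagens with interrupted helices) coat fibrils. LTBP1, the targeted gene, encodes a matrix protein that stores latent TGF-beta, a growth factor well known for raising collagen synthesis in fibroblasts. In carcinomas most fibrillar collagen comes from fibroblasts of the stroma, whereas epithelial cells make mainly basement membrane and transmembrane collagens.

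The glycine repeat was visible in the reference coding sequence of all 44 chains. Runs of glycine codons, GGN, at every 3rd codon had a longest length between 23 triplets in COL26A1 and 343 in COL3A1. It was 87 triplets in COL6A2 and 338 in COL1A1. In COL12A1 it was 32, and only 8.195% of its codons lay in runs of at least 5 triplets, since most of that chain is not helical. The first 90 bases of the longest run of these genes, from GENCODE release 29 transcripts, are shown as examples of the repeat from a type VI, a fibrillar and a FACIT chain; being cut from a run they are repeat throughout, whatever share of the chain it fills, and capitals mark the glycine codons.
COL6A2: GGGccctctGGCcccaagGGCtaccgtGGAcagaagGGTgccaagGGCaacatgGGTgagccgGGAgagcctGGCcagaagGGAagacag
COL1A1: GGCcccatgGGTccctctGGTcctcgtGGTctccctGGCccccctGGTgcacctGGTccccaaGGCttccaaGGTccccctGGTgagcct
COL12A1: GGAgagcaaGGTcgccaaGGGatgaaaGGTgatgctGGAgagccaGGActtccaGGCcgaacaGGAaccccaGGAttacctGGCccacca

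The knockdown held in every library. LTBP1 had 59.0, 66.7 and 49.0 normalized counts in shLTBP1, against 977, 964 and 1011 in shSCR, so that 5.92% of the control mean remained. The exact two-sided permutation test gave p = 0.1, the smallest that 3 libraries against 3 allow. Libraries summed to between 30479879 and 30941103 normalized counts, a scale set by the authors that no longer shows sequencing depth. Epithelial markers were abundant, with a summed level of 328715 to 351991 in shLTBP1 and 354022 to 374730 in shSCR over 12 genes. Of the 11 tested, 4 rose and 4 fell, where 26.3% of all tested genes rose and 26.8% fell. Log2 fold changes were 1.27 for KRT7 and 0.93 for ELF3, and -1.12 for EPCAM (-0.55 after subtracting what its neighbours on chromosome 2 did). Their part in the collagen differences was not tested. Fibroblast markers were at 67.3 to 101.7 in shLTBP1 and 29.4 to 44.7 in shSCR over 15 genes, and THY1, PRRX1, SFRP2 and TWIST1 were at 0 in all 6 libraries. Vimentin (VIM), a defining mesenchymal filament protein, did not exceed 4.50. Only LUM and FBLN1 of the 15 were tested, and FBLN1 did not pass (limma adjusted p = 0.878). LUM, a proteoglycan that binds collagen fibrils, was at 41.5, 52.0 and 36.6 in shLTBP1 and listed at 0 in the 3 shSCR libraries. It reached the minimum mean for testing, given below, only through its shLTBP1 values, so it could pass only as a higher gene. Its part in the collagen differences was not tested. DCN, a related proteoglycan, was at 0.774, 4.53 and 3.13 in shLTBP1 and at 0 in shSCR. Among blood cell markers CD68, at 669 ± 56.7 in shLTBP1 and 366 ± 22.5 in shSCR (SD, n = 3 each), rose (limma adjusted p = 2.87e-05), and HBA1 and HBB stood at 803 and 132 in shSCR replicate 3, against at most 12.0 and 0 in the other libraries; values without that library are given with the counts below.

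Collagen RNA summed over the family was lower in the LTBP1-depleted cells, a difference carried mostly by 3 chains on chromosome 21, and single chains moved both ways. A chain was tested when its mean over the 6 libraries was at least 10 normalized counts, which 18 of the 44 were. With limma on log2(value + 1) and Benjamini-Hochberg adjustment over all 12789 tested genes, 12 of the 18 passed an adjusted p of 0.05, where 53.1% of all tested genes passed. Of these 12, 8 were lower in shLTBP1 (26.8% of all tested genes were) and 4 were higher (26.3% of all tested genes were). The lower chains were COL6A2, COL27A1, COL4A5, COL13A1, COL6A1, COL18A1, COL1A1 and COL17A1, with log2 fold changes between -2.96 and -0.38. The higher chains were COL16A1, COL9A2, COL12A1 and COL5A3, between 0.71 and 2.06. A fall of at least 1 on the log2 scale was reached by 4 chains, against 4.39% of tested genes, and a rise of at least 1 by 2 chains, against 4.54%. For 12 of the 18 chains the shLTBP1 and shSCR values lay apart, against 60.8% of tested genes. The median log2 fold change was -0.25 over the 18 chains and 0.0038 over all tested genes. COL13A1 passed the minimum mean only through its shSCR values; leaving it aside, 7 of 17 tested chains were lower, 3 of them by at least 1 on the log2 scale. Without shSCR replicate 3, which takes COL13A1 below the minimum mean, 17 chains were tested and 7 fell and 4 rose, where 46.2% of all tested genes passed. In whole-culture RNA, fewer cells with a transcript and less transcript per cell cannot be told apart.

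**Figure D1:**
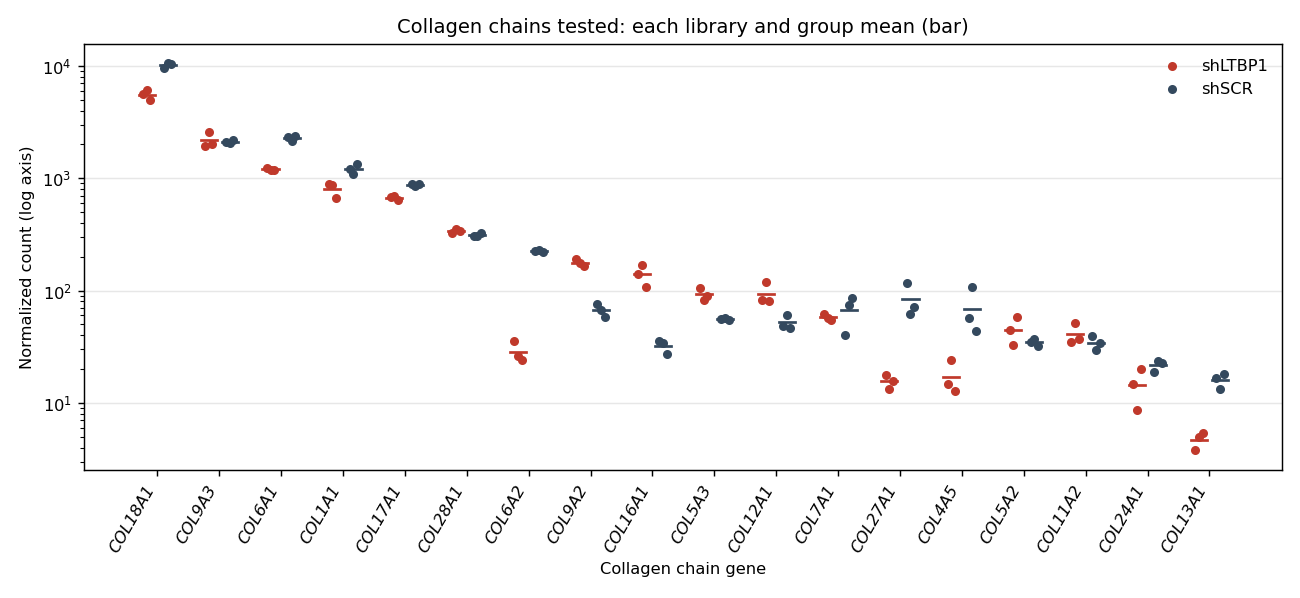
Normalized count (log axis) of the 18 tested collagen chains, ordered by their mean over all libraries; points are libraries (red shLTBP1, dark shSCR, 3 each) and bars are group means. COL6A2 sits at 24.1 to 35.5 in shLTBP1 and at 222 to 231 in shSCR, while COL9A2 and COL16A1 lie higher in every shLTBP1 library.

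**Figure D2:**
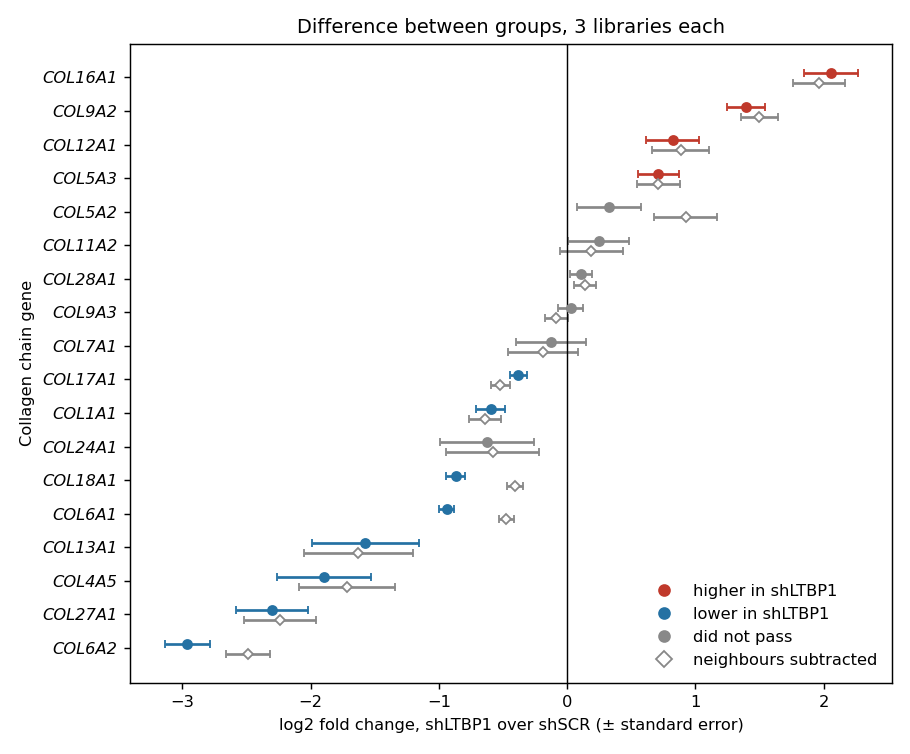
Log2 fold change of shLTBP1 over shSCR with its standard error for each tested chain (limma, 3 libraries each); filled points are the fit as reported and open diamonds the fit with the median of neighbouring genes subtracted. COL6A1 moves from -0.94 to -0.48 and COL5A2 from 0.32 to 0.92 between the fits, and COL6A2 stays at -2.49 or below.

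Type VI collagen, a filament that links cells to the surrounding matrix and is assembled from a COL6A1, a COL6A2 and a further chain, showed the largest fall. COL6A2 (ENSG00000142173, plus strand of chromosome 21 from 46098097 to 46132849 in GRCh38) had 35.5, 25.9 and 24.1 normalized counts in shLTBP1, against 224, 231 and 222 in shSCR. The groups were far apart, and 12.6% of the control mean remained (log2 fold change -2.96, SE 0.18, limma adjusted p = 8.25e-07). COL6A1, its neighbour on the same strand of chromosome 21 from 45981737 to 46005050, had 1232, 1171 and 1194 in shLTBP1, against 2336, 2164 and 2396 in shSCR. COL6A1 fell to 52.2% of its control mean (log2 fold change -0.94, SE 0.058, limma adjusted p = 9.61e-07). The remaining chains were close to the limit of detection: COL6A3, the usual partner of both, had at most 7.48, COL6A5 at most 2.61 and COL6A6 at most 1.28 in any library. The 2 tested chains thus fell by different amounts. Per kilobase of exon, COL6A2 was 2.85%, 2.20% and 2.01% of the COL6A1 level in shLTBP1, against 9.52%, 10.6% and 9.18% in shSCR. The mean log2 ratio of COL6A2 to COL6A1 differed by -2.02 between shLTBP1 and shSCR, with no overlap between groups (exact two-sided permutation p = 0.1, the smallest possible; 0.1 after adjustment over the 2 pairs compared).

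Genes around the type VI chains were lower too. The median log2 fold change of the tested genes next to COL6A2, up to 25 on each side, was -0.46, and that of the 129 tested genes of chromosome 21 was -0.39. With the neighbours' median subtracted in each library, COL6A2 was at -2.49 and COL6A1 at -0.48 (limma adjusted p = 2e-06 and 0.000102). COL18A1, on the same chromosome, was at -0.41 in that fit (limma adjusted p = 0.000523), against -0.87 without it.

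COL18A1 was the most abundant collagen RNA of these cells. Its product, a basement membrane collagen with heparan sulphate chains, is cut at its end to release endostatin, an inhibitor of vessel growth. COL18A1 (ENSG00000182871, plus strand of chromosome 21 from 45405137 to 45513720) had 5634, 6048 and 4974 normalized counts in shLTBP1, against 9504, 10533 and 10325 in shSCR. Every shLTBP1 library lay below every shSCR library, and the mean was 54.9% of the control (log2 fold change -0.87, SE 0.072, limma adjusted p = 6.39e-06). SLC19A1 overlaps COL18A1 on the opposite strand and was lower as well (log2 fold change -0.46, limma adjusted p = 6.81e-05); the strand setting of the counting is not given in the sources used here. COL15A1, the other member of its class (multiplexins), did not exceed 0.730.

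In sum over all 44 chains, the shLTBP1 libraries had 11482, 12498 and 10532 normalized counts, against 17123, 17834 and 18201 in the shSCR libraries. The groups did not overlap. COL18A1 made up 48.2% ± 0.934 of this sum in shLTBP1 and 57.1% ± 1.81 in shSCR (SD, n = 3 each). COL9A3, which did not pass, made up 18.8% ± 1.90 in shLTBP1 and 11.9% ± 0.369 in shSCR, and COL1A1 kept a like share, 6.98% ± 0.692 and 6.84% ± 0.643. Without COL18A1 the sum was 5952 ± 455 in shLTBP1 and 7599 ± 288 in shSCR. The 3 chromosome 21 chains, COL18A1, COL6A1 and COL6A2, summed to 6779 ± 537 in shLTBP1 and 12645 ± 503 in shSCR (SD, n = 3 each). The other chains summed to 4580, 5254 and 4341 in shLTBP1, against 5059, 4906 and 5259 in shSCR, and there the groups overlapped. These sums are not corrected for transcript length and carry no test.

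**Figure D3:**
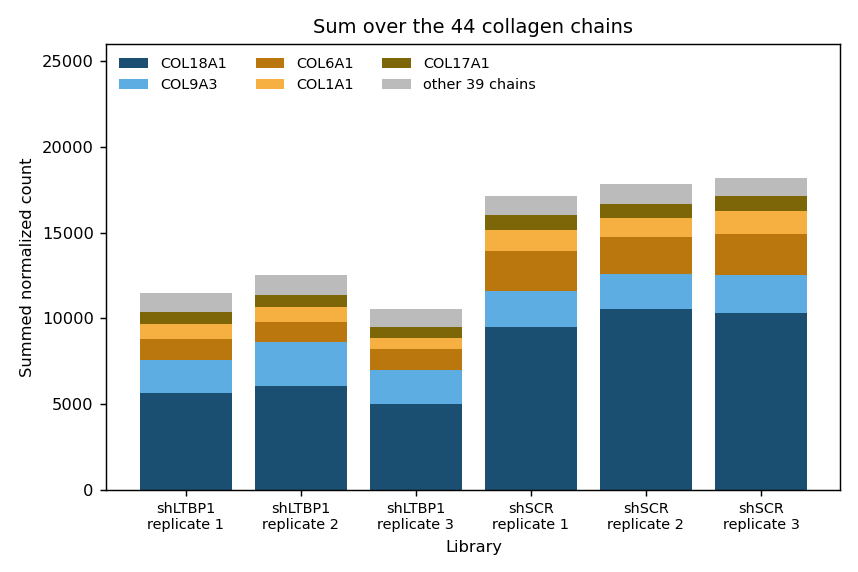
Summed normalized count of the 44 collagen chains in each library, with the 5 most abundant chains coloured and the others in grey. The shLTBP1 libraries reach 10532 to 12498 and the shSCR libraries 17123 to 18201, and COL18A1 is the largest block in each.

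Of the fibrillar collagens, 6 of 11 chains were tested, and 2 fell, 1 rose and 3 did not pass, a share of calls near the 53.1% of all tested genes. COL1A1, the main chain of type I collagen, fell (minus strand of chromosome 17 from 50183289 to 50201632). It had 884, 864 and 666 normalized counts in shLTBP1, against 1210.3, 1091 and 1336 in shSCR, without overlap (log2 fold change -0.60, SE 0.11, limma adjusted p = 0.0017). Its usual partner COL1A2 was nearly silent, at 2.04, 1.43 and 0 in shLTBP1 and 0, 3.03 and 0 in shSCR. COL3A1, which joins type I in mixed fibrils, did not exceed 1.06.

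COL27A1, a fibrillar collagen of cartilage with a shorter helix, had the second largest fall of the family. COL27A1 counts were 17.7, 13.3 and 15.7 in shLTBP1, against 116.6, 62.0 and 70.9 in shSCR. The shSCR values were uneven, but the lowest of them was over every shLTBP1 value (log2 fold change -2.30, SE 0.28, limma adjusted p = 9.04e-05). Without shSCR replicate 1, the highest library, its log2 fold change was -2.03. COL5A3, a minor chain of type V collagen, which starts and limits type I fibrils, rose. COL5A3 had 104.6, 82.0 and 90.1 in shLTBP1, against 55.5, 56.5 and 55.0 in shSCR (log2 fold change 0.71, SE 0.16, limma adjusted p = 0.00466).

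The other tested fibrillar chains overlapped between groups. COL5A2, a further type V chain, had 44.3, 32.7 and 57.6 in shLTBP1, against 34.8, 37.2 and 32.4 in shSCR (log2 fold change 0.32, SE 0.25, limma adjusted p = 0.301). It lies on chromosome 2, whose tested genes had a median of -0.56. With its neighbours' median subtracted it passed, at 0.92 (limma adjusted p = 0.0106). COL11A2 was at 34.9, 51.2 and 37.2 in shLTBP1 and 39.3, 29.4 and 34.1 in shSCR (limma adjusted p = 0.417). COL24A1 was at 14.6, 8.61 and 20.03 in shLTBP1 and 19.0, 23.7 and 22.5 in shSCR (limma adjusted p = 0.175). COL5A1, the chain shared by most type V trimers, had one value above 0, 0.320 in shSCR replicate 1.

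Of 10 FACIT chains 4 were tested, and 3 rose and COL9A3 did not pass, where 26.3% of all tested genes rose. The difference from the other classes was not tested. COL16A1, which occurs with fibrils in skin and cartilage and binds collagen-binding integrins, had the largest rise of the family. COL16A1 (minus strand of chromosome 1 from 31652247 to 31704319) had 142, 169 and 107 normalized counts in shLTBP1, against 35.2, 34.3 and 27.5 in shSCR. That is a 4.30-fold higher mean (log2 fold change 2.06, SE 0.21, limma adjusted p = 2.62e-05). COL12A1, which binds the surface of type I fibrils, had 81.6, 119.0 and 79.9 in shLTBP1, against 48.2, 61.0 and 46.5 in shSCR. The groups did not overlap (log2 fold change 0.82, SE 0.21, limma adjusted p = 0.00794). COL12A1 kept its call without shLTBP1 replicate 2, its highest library, at 0.64 (limma adjusted p = 0.0304).

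Type IX collagen, a FACIT best known from cartilage and made of one COL9A1, one COL9A2 and one COL9A3 chain, also had tested chains that differed in their change, here with COL9A2 higher. COL9A2 rose, with 190, 177 and 166 in shLTBP1 against 75.3, 67.6 and 58.5 in shSCR (log2 fold change 1.39, SE 0.15, limma adjusted p = 3.08e-05). COL9A3, the second most abundant collagen RNA here, had 1925, 2565 and 2017 in shLTBP1, against 2092, 2052 and 2191 in shSCR, with overlap (log2 fold change 0.028, SE 0.096, limma adjusted p = 0.826). COL9A1 did not exceed 2.92. Per kilobase of exon, COL9A2 was 11.3%, 7.90% and 9.44% of the COL9A3 level in shLTBP1, against 4.13%, 3.78% and 3.06% in shSCR. The log2 ratio was higher by 1.37 (exact two-sided permutation p = 0.1, the smallest possible; 0.1 adjusted over the 2 pairs). TCFL5 overlaps COL9A3 on the opposite strand, where the strand setting matters too; TCFL5 did not pass (log2 fold change 0.23, limma adjusted p = 0.1001).

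**Figure D4:**
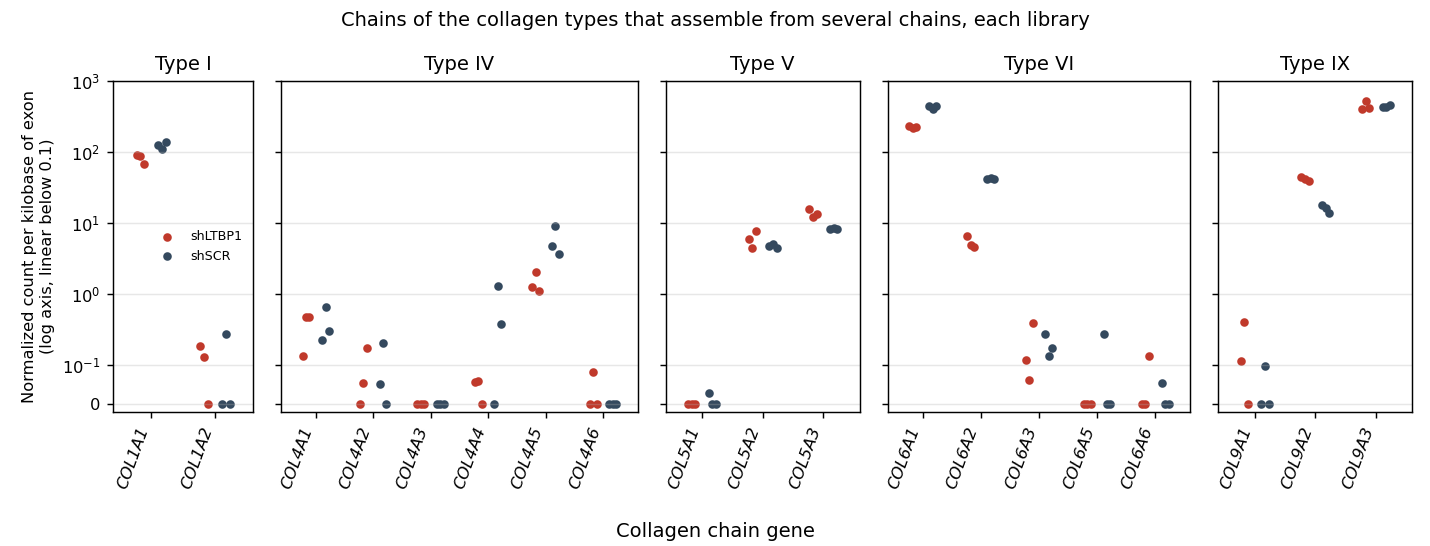
Normalized count per kilobase of exon (log axis, linear below 0.1) for each chain of collagen types I, IV, V, VI and IX; points are libraries, red shLTBP1 and dark shSCR. In types I, VI and IX an abundant chain stands beside partners at or near 0 (COL1A2, COL6A3, COL6A5, COL6A6 and COL9A1), while COL6A2 and COL9A2 lie between. The gap between COL6A2 and COL6A1 is wider in shLTBP1.

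Type IV collagen, the mesh of basement membranes, was scarce. The ubiquitous chains COL4A1 and COL4A2 did not exceed 9.54 and 3.87 in any library and were not tested. COL4A5, the type IV chain that was tested, is found in the membranes of kidney, skin and smooth muscle. COL4A5 had 14.6, 23.9 and 12.8 in shLTBP1, against 56.4, 107.2 and 43.2 in shSCR (log2 fold change -1.89, SE 0.37, limma adjusted p = 0.00181). The groups did not overlap; shSCR replicate 2 was the highest library, and without it the log2 fold change was -1.52. COL4A6, which lies head to head with COL4A5 on chromosome X, was at 0 in 5 of 6 libraries and at 0.761 in shLTBP1 replicate 2.

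Of 4 transmembrane collagens 2 were tested. COL17A1, a protein of hemidesmosomes that anchors epithelial cells to the basement membrane, had 679, 698 and 638 in shLTBP1, against 892, 845 and 887 in shSCR (log2 fold change -0.38, SE 0.066, limma adjusted p = 0.00093). This was the smallest of the changes that passed, and the groups did not overlap. COL13A1, a transmembrane collagen of cell contacts, had 3.77, 4.94 and 5.39 in shLTBP1, against 16.7, 13.2 and 17.9 in shSCR (log2 fold change -1.57, SE 0.42, limma adjusted p = 0.0101). Since its shLTBP1 mean lay below the minimum, COL13A1 could pass the filter only as a lower chain. The remaining tested chains did not pass. COL7A1, which forms the anchoring fibrils below epithelia, had 62.0, 57.1 and 55.0 in shLTBP1, against 39.8, 74.6 and 85.3 in shSCR (log2 fold change -0.13, SE 0.27, limma adjusted p = 0.718). COL28A1, related in its domains to type VI, had 326, 351 and 337 in shLTBP1, against 308, 307 and 326 in shSCR (log2 fold change 0.11, SE 0.084, limma adjusted p = 0.307).

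The other 26 chains were below the minimum mean, and 23 of them were under 10 in every library. COL26A1, just below the minimum mean of 10 at 9.23 over all libraries, had 14.6, 17.2 and 8.45 in shLTBP1, against 1.09, 4.54 and 9.43 in shSCR. COL13A1, just inside it, averaged 10.3. COL25A1 stood at 24.9 in shLTBP1 replicate 1 and at 0 in the other libraries, and COL4A4 at 12.97 in shSCR replicate 2. COL23A1 and COL4A3 were at 0 in all 6 libraries. These values show neither presence nor absence of a difference at this depth.

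Levels can be compared between chains per kilobase of exon. On that scale COL18A1 led with 651 in shLTBP1 and 1187 in shSCR, followed by COL9A3 (448 in shLTBP1, 436 in shSCR) and COL6A1 (224 in shLTBP1, 430.2 in shSCR). COL17A1 and COL1A1 came next and lay side by side, at 95.0 and 82.0 in shLTBP1 and at 124 and 123 in shSCR. COL6A2 was at 5.29 in shLTBP1 and 41.9 in shSCR, and COL9A2 at 42.0 in shLTBP1 and 15.9 in shSCR, so that their order was the opposite in the 2 groups. The longest uninterrupted glycine run did not separate the directions: it spanned 32 to 337 triplets in the 4 higher chains and 30 to 338 in the 8 lower chains. Such a run is not the length of the helix. In COL4A5 it was 42 triplets, yet 79.3% of the codons lay in runs of at least 5 triplets.

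Promoter sequences are shown for the 3 chains that fell most and the 3 that rose most among those with an entry in the RefSeq table (32 of the 44 chains had one). Each is the stretch of 250 bases before the RefSeq start, build GRCh38.p14, 5′ to 3′ on the strand of the gene, with GC boxes (GGGCGG or its complement CCGCCC) in capitals. The windows are chr21:46097862-46098111 (plus) for COL6A2, chr9:114155287-114155536 (plus) for COL27A1, chrX:108439588-108439837 (plus) for COL4A5, chr1:31704018-31704267 (minus) for COL16A1, chr1:40317287-40317536 (minus) for COL9A2 and chr6:75206054-75206303 (minus) for COL12A1.
COL6A2: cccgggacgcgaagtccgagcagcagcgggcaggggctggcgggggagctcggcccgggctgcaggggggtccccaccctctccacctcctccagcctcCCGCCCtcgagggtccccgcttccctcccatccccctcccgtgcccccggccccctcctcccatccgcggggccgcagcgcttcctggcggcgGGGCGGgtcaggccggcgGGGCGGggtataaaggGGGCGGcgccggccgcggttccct
COL27A1: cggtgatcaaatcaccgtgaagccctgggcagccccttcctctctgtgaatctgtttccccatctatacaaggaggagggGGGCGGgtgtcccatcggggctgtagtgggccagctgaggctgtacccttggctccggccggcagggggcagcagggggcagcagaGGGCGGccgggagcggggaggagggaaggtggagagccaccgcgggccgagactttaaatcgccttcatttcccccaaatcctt
COL4A5: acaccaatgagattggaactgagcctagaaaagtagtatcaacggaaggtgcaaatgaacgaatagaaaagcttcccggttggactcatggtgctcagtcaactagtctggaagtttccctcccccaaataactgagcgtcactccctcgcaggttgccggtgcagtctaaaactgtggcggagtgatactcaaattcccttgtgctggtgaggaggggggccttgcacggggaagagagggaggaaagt
COL16A1: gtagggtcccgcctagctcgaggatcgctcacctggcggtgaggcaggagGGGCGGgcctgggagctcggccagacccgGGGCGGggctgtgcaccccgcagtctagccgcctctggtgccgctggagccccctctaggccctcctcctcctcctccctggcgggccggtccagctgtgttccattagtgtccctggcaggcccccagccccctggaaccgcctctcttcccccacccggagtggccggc
COL9A2: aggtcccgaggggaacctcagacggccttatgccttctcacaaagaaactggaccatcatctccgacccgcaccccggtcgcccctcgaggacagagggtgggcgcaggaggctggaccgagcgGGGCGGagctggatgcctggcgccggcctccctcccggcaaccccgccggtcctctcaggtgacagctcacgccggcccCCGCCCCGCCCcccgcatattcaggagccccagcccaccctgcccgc
COL12A1: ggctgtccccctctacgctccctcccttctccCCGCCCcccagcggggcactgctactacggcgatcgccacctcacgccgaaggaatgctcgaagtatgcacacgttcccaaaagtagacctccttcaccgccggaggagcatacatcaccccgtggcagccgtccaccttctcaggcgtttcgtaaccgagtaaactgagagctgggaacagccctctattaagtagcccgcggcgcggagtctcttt

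The COL6A2 window was the richest in GC, at 79.6%, and held 4 GC boxes and a TATAAA motif that starts 32 bases before the RefSeq start. COL27A1 and COL16A1 held 2 GC boxes each, COL9A2 held 3, the last 2 of which overlap by a base, and COL12A1 held 1. The COL4A5 window, at 51.2% GC, held none. A GC box was present in 42.6% of all 35116 windows of this length, in 4 of the 4 higher and in 3 of the 6 lower chains with a window. The core SMAD box CAGAC, searched on both strands, occurred once each in COL4A5, COL16A1 and COL9A2 (38.0% of all windows). The SMAD site GGCGCC occurred once each in COL6A2, where it overlaps a GC box, and in COL9A2 (16.4%). The AP-1 motif TGANTCA was in none of the 6 (6.57%), and TATAAA or its complement was in COL6A2 (10.7%). These are matches of letters in the reference, not measured binding.

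Lists of genes that make, carry, cut and bind collagen are given next; against their counts stand 53.1% of all tested genes that passed, 26.3% higher and 26.8% lower. Of 18 enzymes and chaperones that fold and modify collagen chains, 15 were tested, and 3 rose and 6 fell (median log2 fold change -0.14), 9 calls of 15 against the 53.1% of all genes. Over the alternatives listed below the rises numbered 1 to 4 and the falls 4 to 7. With neighbours subtracted 1 rose and 5 fell. P4HA1 rose by 0.16 on the log2 scale, and by 0.12 with its neighbours' median subtracted (limma adjusted p = 0.0281 and 0.11). P4HB, the shared subunit of the prolyl hydroxylases, rose with a log2 fold change of 0.39 but was at 0.10 with its neighbours' median subtracted (limma adjusted p = 7.39e-05 and 0.0566). The collagen chaperone SERPINH1 was at 0.17 (limma adjusted p = 0.00715), and at 0.088 with GC and length trends removed (limma adjusted p = 0.0654). P3H1, a prolyl 3-hydroxylase, and FKBP10, a prolyl isomerase of the endoplasmic reticulum, fell by 0.64 and 0.43 on the log2 scale (limma adjusted p = 0.00286 and 1.85e-05), and FKBP10 was at -0.69 with its neighbours' median subtracted. All 17 genes of collagen export from the endoplasmic reticulum were tested, and 7 rose and 2 fell (median 0.15), 9 calls of 17 and so no more than the 53.1% of all genes. The SNARE proteins USE1 and STX18 and KLHL12, an adaptor of the ligase that enlarges transport vesicles, rose by 0.66, 0.45 and 0.25 on the log2 scale (limma adjusted p = 0.001004, 0.00108 and 0.00756). Without shLTBP1 replicate 1, shLTBP1 replicate 3 or shSCR replicate 2 the rises numbered 4, 4 and 3. The export genes that fell, PREB and CUL3, lie on chromosome 2 and did not pass with their neighbours' median subtracted.

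Among propeptide proteases and crosslinking enzymes, 9 of 17 were tested, and 1 rose and 5 fell (median -0.66), where 26.3% of all genes rose and 26.8% fell. BMP1, which removes the C-terminal propeptide of fibrillar procollagens, averaged 288 in shLTBP1 and 136 in shSCR (log2 fold change 1.10, limma adjusted p = 0.000398). PXDN, a peroxidase that crosslinks type IV collagen, averaged 14.9 ± 10.6 in shLTBP1 and 46.8 ± 24.8 in shSCR (SD, n = 3 each; log2 fold change -1.85, limma adjusted p = 0.0396). The lysyl oxidases LOXL2 and LOXL3 were at -1.19 and -0.84 (limma adjusted p = 0.0285 and 0.0457). LOXL2, at 9.59 in shLTBP1 and 22.4 in shSCR, passed the minimum mean only through its shSCR values. PXDN and LOXL3 lie on chromosome 2 and did not pass with their neighbours' median subtracted, at -1.36 and -0.26 (limma adjusted p = 0.109 and 0.508), where the falls in the list numbered 3. The falls numbered 2 without shLTBP1 replicate 2 and 3 without any 1 of the shSCR replicates. PXDN did not pass without shLTBP1 replicate 2 or shSCR replicate 2 or 3 (log2 fold change -1.93 to -0.99, limma adjusted p = 0.0702 to 0.138). Nor did LOXL2 pass without shLTBP1 replicate 1 or 2 or shSCR replicate 1 or 2 (log2 fold change -1.25 to -0.91, limma adjusted p = 0.0524 to 0.1006), nor LOXL3 without shLTBP1 replicate 2 or 3 or shSCR replicate 1 or 3 (log2 fold change -0.88 to -0.54, limma adjusted p = 0.0753 to 0.162). TGM2, a transglutaminase that crosslinks matrix proteins, averaged 4084 in shLTBP1 and 6436 in shSCR (log2 fold change -0.66, limma adjusted p = 1.75e-06). PCOLCE, the remaining fall of the list, averaged 51.8 in shLTBP1 and 89.1 in shSCR (log2 fold change -0.76, limma adjusted p = 0.0108). With its neighbours' median subtracted PCOLCE was at -0.90 (limma adjusted p = 0.00481).

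Of 14 collagen receptors, 8 were tested, and 2 rose and 4 fell (median -0.30), where 26.3% of all genes rose and 26.8% fell. MRC2, an endocytic receptor that takes up collagen for breakdown, had 74.1, 88.3 and 81.8 in shLTBP1, against 508, 482 and 542 in shSCR. The groups were far apart (log2 fold change -2.64, SE 0.11, limma adjusted p = 8.98e-08). ITGA2 and ITGB1, the chains of the main epithelial collagen receptor, had log2 fold changes of -1.31 and -0.44 (limma adjusted p = 9.32e-07 and 2.23e-05). ADGRG6, an adhesion receptor that binds type IV collagen, rose by 1.12 on the log2 scale (limma adjusted p = 1.15e-06). The rise of ITGA1 did not pass once any 1 of shLTBP1 replicates 1, 2 and 3 or of shSCR replicates 1 and 3 was left out (log2 fold change 0.85 to 1.31, limma adjusted p = 0.0529 to 0.166). DDR1, the epithelial collagen-activated kinase, was at 7674 in shLTBP1 and 8083 in shSCR and did not pass (limma adjusted p = 0.289).

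Of 22 proteases and inhibitors of collagen breakdown, 11 were tested, and 2 rose and 4 fell (median -0.0998), 6 calls of 11 and so near the 53.1% of all genes. MMP14, a membrane-bound collagenase, had 1136, 1693 and 1457 in shLTBP1, against 4547, 4319 and 4646 in shSCR (log2 fold change -1.67, SE 0.12, limma adjusted p = 2.35e-06). The inhibitor TIMP1 and PEPD, which recycles proline from collagen fragments, fell as well, with log2 fold changes of -0.74 and -0.59 (limma adjusted p = 7.58e-05 and 5.18e-06). The lysosomal protease CTSL rose by 1.07 on the log2 scale, or by 0.56 with its neighbours' median subtracted (limma adjusted p = 3.77e-07 and 6.39e-05). MMP15, another membrane protease, was at 0.23, and at 0.066 with GC and length trends removed (limma adjusted p = 0.00507 and 0.302).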

How the data were processed

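Total RNA was sequenced from 3 shLTBP1 and 3 shSCR libraries, grouped by their titles. The submitters' processing notes name build hg38 and the tools STAR 2.7.3a, FastQC 0.10.1, DESeq2 and RSEM 1.3.1; which annotation, filters and strand setting the authors used is not given in the sources used here. Each deposited value is a signal, a gene's read count as normalized by the authors with DESeq2, as its file is named. Between 34.8% and 36.9% of the low values in a library came out whole, within 0.1, when divided by its commonest value near 1; whole reads could therefore not be rebuilt, and a count model was not used.

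limma 3.58.1 in R 4.3.3 was fitted to log2(value + 1) for genes whose mean reached 10, with group as the only term, a mean-dependent variance trend and two-sided p-values adjusted by Benjamini-Hochberg over 12789 genes. The pseudocount makes fold changes of low genes too small. Positions and exon lengths came from GENCODE release 29 (GRCh38, the assembly of hg38), matched for 19872 of 19960 gene identifiers. Per-kilobase levels divide by the length of all annotated exons, so unused exons lower them.

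Members, gene lists and tests were chosen with earlier results of these data known. Named are LTBP1, all tested chains, untested chains that reach 10 in a library, and from each list up to 3 rises and 3 falls and the most abundant markers, not all of which are printed. VIM, DCN, THY1, PRRX1, SFRP2, TWIST1, DDR1, TGM2, SLC19A1, TCFL5 and chains at low values were added after their values were seen. The split of the collagen sum by chromosome was chosen after the values were seen. Alternatives were pseudocounts of 0.5 and 5, other filters and scalings, other variance moderation, the replicate block, each library left out, neighbouring genes subtracted, and GC and length trends removed by splines with 4 degrees of freedom.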

Additional observations from a re-analysis of the deposited data

How the results depend on the processing

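The count of collagen chains past the threshold stayed between 9 and 13 under all 18 alternatives, against 12 as reported. With a mean of at least 50, 5 chains were lower in place of 8, because fewer chains were tested. Leaving out single libraries gave 7 to 8 lower chains, 4 higher chains each time and 5828 to 6532 genes past the threshold; COL13A1 fell below the minimum mean when a shSCR library was left out. The log2 fold change of LTBP1 lay between -4.17 and -3.48 over all alternatives. The 12 chains that passed did so under each alternative in which they were tested, and COL5A2 passed in addition with neighbours subtracted (0.92). Signs turned for values near 0. With single libraries left out, COL9A3 ranged from -0.099 (without shLTBP1 replicate 2) to 0.108, COL7A1 from -0.454 to 0.086 (without shSCR replicate 3) and the fibroblast marker FBLN1, at 0.080 as reported, from -0.297 (without shLTBP1 replicate 2) to 0.46. COL9A3 was also at -0.086 with neighbours subtracted and -0.20 with GC and length trends removed. FBLN1 was at -0.0026 after quantile normalization, -0.082 with neighbours subtracted and -0.023 with GC and length trends removed. The cause was not tested.

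With the replicate number as a block, 12 chains passed, 8 lower and 4 higher, and genes past the threshold numbered 6755. Deviations of same-numbered libraries had correlations of -0.00925, 0.0584 and -0.00074 for replicates 1, 2 and 3. Between differently numbered libraries they lay between -0.0397 and 0.0445. These values cannot show whether same-numbered libraries share a culture or a preparation, which the labels do not give. For the chain pair ratios the block leaves the mean differences as they were by construction (-2.02 and 1.37), so their direction could not change. Only the exact p could, and under the block it cannot fall below 0.25. Depth could not be recovered from normalized values, which limits what can be said of chains below the minimum mean.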
